A study of Mus musculus with 6 samples.

Results

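The genes described here encode 10 factors that detect, rescue or mark stalled ribosomes, chosen by gene symbol for their known function. Earlier results of these data were known when they were chosen. All 10 were among the 22332 symbols of the count table and among the 15084 genes that passed the filter on low counts. The material was the mouse embryonic stem cell line CGR8, sequenced as 6 libraries of total RNA depleted of ribosomal RNA. The medium held 10% fetal bovine serum and LIF, the cytokine that keeps such cells pluripotent, and the cells were collected 48 hours after transfection. The control group (siCtrl, n = 3) received a pool of non-targeting siRNAs, and the other group (siRSL24D1, n = 3) received a pool against Rsl24d1, which encodes a protein that helps to assemble the large ribosomal subunit. Every library therefore comes from transfected cells of 1 cell line, and cells that received no siRNA were not analysed here.

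A ribosome that stops on an mRNA is hit from behind by the next one, and the pair is recognised as a collision. Zfp598 ubiquitinates the collided small subunits, the Gigyf2 and Eif4e2 proteins block new initiation on the message, and the helicase Ascc3 pulls the leading ribosome apart. Where the decoding site is empty, Pelo and Hbs1l enter it and Abce1 splits the subunits. The large subunit then still carries an unfinished chain, which Nemf extends and Ltn1 ubiquitinates for degradation. Mouse mutants of Ltn1, and of Gtpbp2 on a background with a defective tRNA, are known for loss of neurons.

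The mRNAs of these factors differed little between the groups. Of the 10, 1 fell, Gtpbp2, to 0.840 of its siCtrl level, and 0 rose at an adjusted p under 0.05 (quasi-likelihood test of edgeR, Benjamini-Hochberg over all genes tested). Among all genes tested, 41.2% were past the same threshold, 21.2% higher and 20.0% lower in siRSL24D1. No member was higher at an unadjusted p under 0.05 in edgeR, and 0 were higher in DESeq2 and 0 in limma-voom. The median absolute log2 fold change was 0.04 over the members and 0.20 over all genes tested. It was 0.15 over the 8267 genes within the members' range of average level, of which 45.2% were past the threshold. For 7 of the 10 factors the log2 fold change lay within 0.1 of 0, which held for 27.4% of all genes tested. The ranges of the 2 groups did not overlap for 4 of the 10 members, against 53.0% of all genes. These counts describe a set picked by function with earlier results of these data known. Nothing in them was tested as a property of the set.

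**Figure D1:**
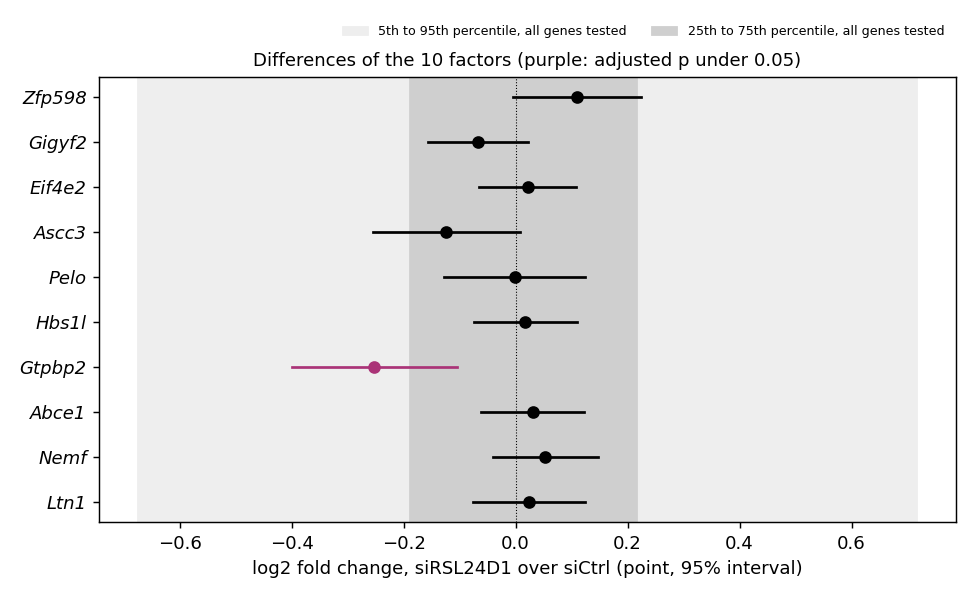
Log2 fold change (siRSL24D1 over siCtrl) of each factor as a point with its 95% interval from the edgeR fit, against the middle ranges of all genes tested in grey. The interval of Gtpbp2, from -0.40 to -0.10 (purple), lies below 0, while those of the other 9 factors include 0.

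The knockdown and the cells were checked first. Rsl24d1 mRNA was at 99.4, 102.7 and 97.9 CPM (counts relative to the library total, scaled between libraries by TMM) in siCtrl and at 53.8, 55.6 and 52.1 CPM in siRSL24D1, so the groups did not overlap. Library totals ran from 30943635 to 35214000 estimated counts. One library of each group stood apart from its replicates: the chi-square per gene between libraries was 2.66 for siCtrl 1 with siCtrl 2 but 14.0 and 18.5 with siCtrl 3, and 4.14 for siRSL24D1 1 with siRSL24D1 3 but 12.2 and 14.9 with siRSL24D1 2. Without either of them, and without any other single library, 1 factor fell and 0 rose. Sums of markers are given as CPM of the unfiltered library total, without TMM scaling. All 8 stem cell markers examined, Pou5f1 and Nanog among them, were present, and 1 rose and 5 fell. Their summed levels were 2378 to 2685 CPM in siCtrl and 2189 to 2284 CPM in siRSL24D1. Markers of other cell types were present too. The sum of 5 neuroectoderm markers was 25.3 to 28.4 CPM in siCtrl and 53.9 to 60.6 CPM in siRSL24D1, and that of 5 primitive streak and mesoderm markers was 119.9 to 131 and 163.9 to 182.6 CPM, with 3 risen and 0 fallen in each list. For fibroblasts the sums were 116.5 to 150.3 and 114 to 138.8 CPM over 6 markers, for endoderm 17.1 to 19.6 and 17.4 to 18.97 CPM over 6, and for trophoblast 81.9 to 86.1 and 80.3 to 83.7 CPM over 5. Single markers of these lists differed, and not all passed the filter on low counts. Of 5 fibroblast markers tested, 1 rose and 2 fell. Of 5 endoderm markers tested, 2 rose and 1 fell, and of 4 trophoblast markers tested, 2 rose and 1 fell. Of all genes tested, 21.2% were past the threshold as higher and 20.0% as lower in siRSL24D1. No marker of any of these lists was at 0 in all libraries. Their part in the values below was not tested.

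Gtpbp2 encodes a GTPase of the Hbs1l type that binds Pelo and helps to resolve stalled ribosomes. The gene lies on chromosome 17 from 46161032 to 46169370 (plus strand, GRCm38, GENCODE M21). It is shown with 250 bases before its annotated start because it is the member that passed the test, beside the same stretch of Abce1, the most abundant member, which did not. Both are from RefSeq (GRCm38.p6), at chr17:46160782-46161031 on the plus strand and chr8:79711741-79711990 on the minus strand. Capitals mark any match, on either strand, to the box CCAAT, the GC box GGGCGG, the TATA box TATAAA, the E-box CACGTG or the core TGATGNAA of the element bound by ATF4 with C/EBP partners. These motifs were searched apart from each other, and no match overlapped another in the stretches shown.
Gtpbp2: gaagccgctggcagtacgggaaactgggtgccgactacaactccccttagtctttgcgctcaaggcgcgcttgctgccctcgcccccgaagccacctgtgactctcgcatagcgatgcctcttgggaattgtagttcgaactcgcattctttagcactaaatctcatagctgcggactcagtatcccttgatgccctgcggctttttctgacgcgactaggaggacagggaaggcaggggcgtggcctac
Abce1: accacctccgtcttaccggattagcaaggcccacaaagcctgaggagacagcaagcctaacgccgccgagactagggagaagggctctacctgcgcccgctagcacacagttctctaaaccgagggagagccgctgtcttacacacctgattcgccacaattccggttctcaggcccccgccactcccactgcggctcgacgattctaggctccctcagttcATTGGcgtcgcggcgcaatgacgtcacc
The Gtpbp2 stretch held none of these motifs, and the Abce1 stretch held CCAAT on the opposite strand. Among the 10 members, CCAAT was found before 4 (Abce1, Gigyf2, Ltn1 and Nemf) and in 33.8% of the 32851 mouse promoter stretches of this length. The GC box GGGCGG was found before 5 (Ascc3, Eif4e2, Gigyf2, Hbs1l and Zfp598) and in 32.7% of all. No member had the TATA box, the E-box or the ATF4 core, which were in 12.4%, 6.02% and 3.45% of all stretches. The median GC content was 59.2% over the 12 stretches of the members and 52.4% over all. A member was counted if any of its stretches matched, while the shares of all are per stretch. These are matches of letters only.

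Gtpbp2 was measured at 28.3, 24.3 and 26.1 CPM in siCtrl and at 21.8, 21.9 and 22.4 CPM in siRSL24D1. All 3 siRSL24D1 libraries were below all 3 siCtrl libraries, and the spread was wider in siCtrl (26.2 ± 1.96 CPM) than in siRSL24D1 (22.03 ± 0.36 CPM; SD, n = 3 each). The fold change on the log2 scale was -0.25, its standard error 0.06 (edgeR adjusted p = 0.0145), which is a level of 0.840 of siCtrl with a 95% interval from 0.758 to 0.930. Without siCtrl 1, the library with the highest value, the log2 fold change was -0.20 (edgeR adjusted p = 0.0494), and without siRSL24D1 1 it was -0.24 (edgeR adjusted p = 0.0486). In bulk RNA, fewer cells with a transcript and less of it per cell cannot be told apart. Its relative Gtpbp1, also a GTPase of stalled-ribosome rescue, averaged 61.0 ± 1.48 CPM in siCtrl and 56.1 ± 4.31 CPM in siRSL24D1, a log2 fold change of -0.12 (edgeR adjusted p = 0.143). Gtpbp1 passed without siRSL24D1 2 (log2 fold change -0.17, edgeR adjusted p = 0.0482) and was at -0.06 without siRSL24D1 3 (edgeR adjusted p = 0.419). The Gtpbp2 to Gtpbp1 count ratio was 0.453, 0.397 and 0.440 in siCtrl and 0.384, 0.365 and 0.436 in siRSL24D1, and these ranges overlapped (exact two-sided permutation p = 0.2, 0.28 adjusted over 7 partner ratios). The mean log2 difference of -0.13 was -0.07 without siRSL24D1 2 and -0.20 without siRSL24D1 3. The siRSL24D1 3 ratio lay inside the siCtrl range, and the other siRSL24D1 ratios lay below it. With 3 libraries against 3 this test cannot go below 0.1, so it cannot decide whether Gtpbp2 fell relative to Gtpbp1.

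The 3 genes whose centred log2 levels over the 6 libraries were nearest to those of Gtpbp2 were Cerk, the ceramide kinase, Gla, the lysosomal alpha-galactosidase, and Pir, the iron-binding protein pirin. Their root mean square differences from Gtpbp2 were 0.022, 0.033 and 0.035 on the log2 scale, and their log2 fold changes were -0.25, -0.24 and -0.21. With 6 libraries in 2 groups this describes a shared contrast and a shared spread within the groups.

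**Figure D2:**
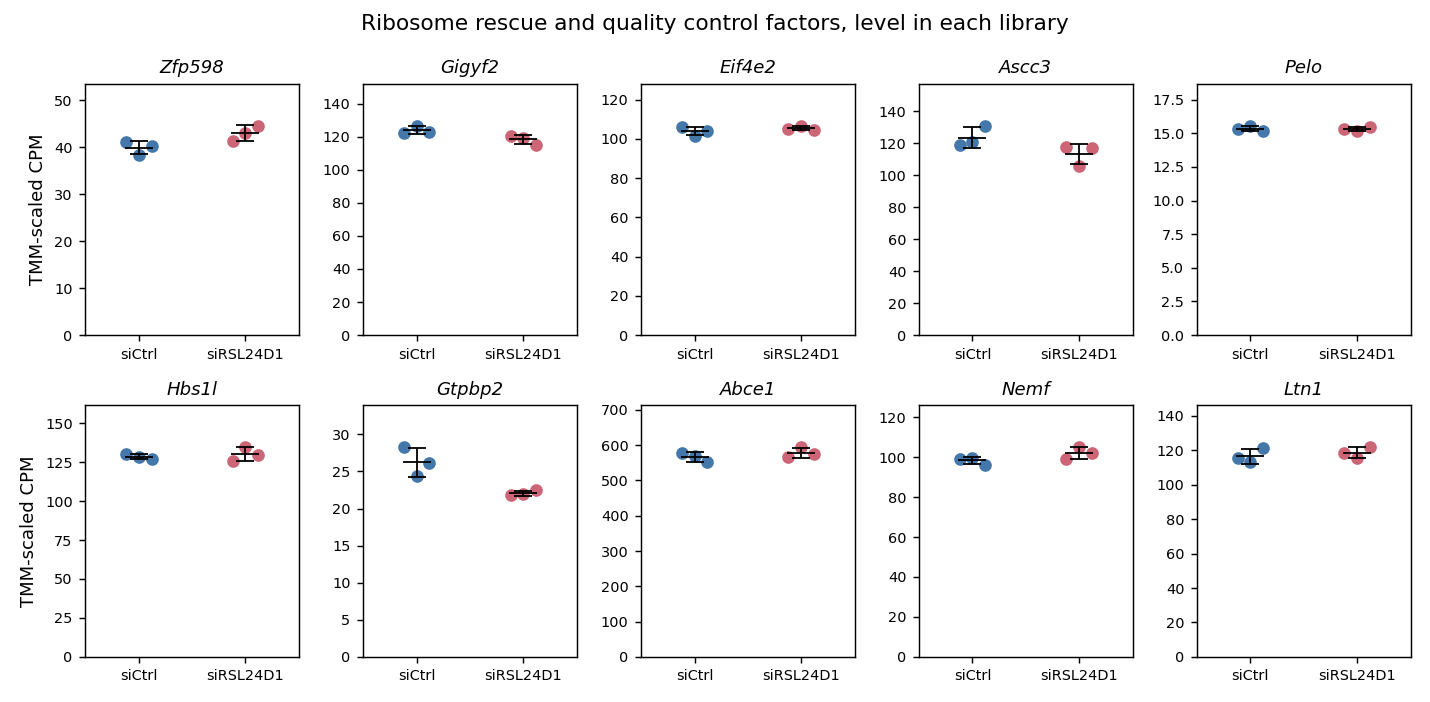
TMM-scaled CPM of each factor in every library (points), with the mean and SD of each group of 3 (bars); each vertical axis starts at 0. The siRSL24D1 points of Gtpbp2, at 21.8 to 22.4 CPM, sit below its siCtrl points at 24.3 to 28.3 CPM, and those of Pelo lie between 15.2 and 15.5 CPM against 15.2 to 15.6 CPM.

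Pelo, related to the termination factor Etf1, recognises ribosomes with an empty decoding site. Its single annotated transcript of 1600 bases lies on chromosome 13 from 115088355 to 115090186 on the minus strand. Pelo stood at 15.3, 15.6 and 15.2 CPM in siCtrl and 15.3, 15.2 and 15.5 CPM in siRSL24D1. The siRSL24D1 range lay inside that of siCtrl, and the SD was 0.20 CPM in siCtrl and 0.15 CPM in siRSL24D1. The log2 fold change was 0.00 with a 95% interval from -0.13 to 0.12 (edgeR adjusted p = 0.983), and its sign changed with the scaling. Pelo lies inside the span of Itga1, the integrin alpha 1 gene, on the same strand, with no shared exon base. Itga1 rose from 4.74 ± 0.27 to 7.76 ± 0.54 CPM (log2 fold change 0.71, edgeR adjusted p = 0.000732). On the other strand, Gm10734 shares 468 exon bases with Pelo and is not among the symbols counted. A further same-strand gene model, Gm49395, shares 739 exon bases with Pelo and was at 0 to 1.57 CPM. With its counts added to Pelo, an alternative chosen after seeing the data, the log2 fold change was 0.06 (edgeR adjusted p = 0.413).

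Hbs1l is the GTPase that delivers Pelo to the ribosome, and it lies on chromosome 10 from 21295979 to 21368898. It stood at 130.1, 128.2 and 127.3 CPM in siCtrl and 125.8, 134.5 and 129.8 CPM in siRSL24D1, so the siCtrl range lay inside that of siRSL24D1. The log2 fold change was 0.02 with a 95% interval from -0.07 to 0.11 (edgeR adjusted p = 0.761), and its sign changed under upper-quartile scaling. An antisense gene, 4930455C13Rik, shares 266 exon bases with Hbs1l and is not among the symbols counted. The Pelo to Hbs1l count ratio was 0.118, 0.122 and 0.119 in siCtrl and 0.122, 0.113 and 0.119 in siRSL24D1 (exact permutation p = 0.9), with overlapping ranges.

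Pelo and Hbs1l resemble the pair that ends normal translation, Etf1, which reads stop codons, and Gspt1, its GTPase. Etf1 rose from 370.6 ± 10.5 to 435.7 ± 18.3 CPM, for a log2 fold change of 0.23 (edgeR adjusted p = 0.00436), a call lost after a correction for transcript length (0.17, edgeR adjusted p = 0.0686) but kept when that correction went with the replicate block (0.17, edgeR adjusted p = 0.0432). Gspt1 averaged 161.5 ± 2.40 CPM in siCtrl and 173.03 ± 3.90 CPM in siRSL24D1, a log2 fold change of 0.10 (edgeR adjusted p = 0.0644). It passed with library totals as scaling (edgeR adjusted p = 0.0300) and after the length correction (edgeR adjusted p = 0.0458), but not after the length correction with the replicate block (edgeR adjusted p = 0.0658). The Pelo to Etf1 count ratio was 0.0402, 0.0420 and 0.0422 in siCtrl and 0.0369, 0.0337 and 0.0351 in siRSL24D1. All 3 siRSL24D1 ratios were lower, at a mean log2 difference of -0.23 (exact permutation p = 0.1, below which 3 libraries against 3 cannot go, and 0.175 adjusted over the 7 ratios). The Hbs1l to Gspt1 count ratio was 0.817, 0.795 and 0.776 in siCtrl and 0.712, 0.776 and 0.768 in siRSL24D1. The mean log2 difference was -0.08, with siCtrl 3 at 0.7761 and siRSL24D1 2 at 0.7756 nearly equal (exact permutation p = 0.1, 0.175 adjusted). Without siRSL24D1 1 the difference was -0.04.

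Abce1, an ATPase with iron-sulfur clusters that splits ribosomes after termination and rescue, had the highest level of the 10. It lies on chromosome 8 from 79683462 to 79711740. It stood at 577.6, 569.8 and 551.7 CPM in siCtrl and 567.3, 593.96 and 573.95 CPM in siRSL24D1, with overlapping ranges. The log2 fold change was 0.03 with a 95% interval from -0.06 to 0.12 (edgeR adjusted p = 0.572).

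Zfp598, the ubiquitin ligase that reads collisions, lies on chromosome 17 from 24669687 to 24682016. It stood at 41.1, 38.4 and 40.2 CPM in siCtrl and 41.4, 43.1 and 44.6 CPM in siRSL24D1. All siRSL24D1 libraries were above all siCtrl libraries, though the nearest, siCtrl 1 and siRSL24D1 1, were 41.08 and 41.41 CPM. The log2 fold change of 0.11 did not pass (95% interval from -0.0049 to 0.22, edgeR adjusted p = 0.113).

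Ascc3, the helicase of the complex that takes collided ribosomes apart, lies on chromosome 10 from 50592669 to 50851485. It stood at 118.8, 120.8 and 131.1 CPM in siCtrl and 117.5, 106.03 and 116.8 CPM in siRSL24D1. The ranges did not overlap, with siCtrl 3 the highest library and siRSL24D1 2 the lowest. The log2 fold change was -0.12 with a 95% interval from -0.25 to 0.01 (edgeR adjusted p = 0.118). It was -0.15 without siCtrl 1, -0.09 without siCtrl 3 and -0.08 without siRSL24D1 2, and the adjusted p of edgeR was 0.122 to 0.295 over the 6 fits without 1 library. After a correction for GC content it passed (-0.17, edgeR adjusted p = 0.0106). Of its partner proteins, Ascc2, a ubiquitin-binding subunit, was at -0.05 (edgeR adjusted p = 0.444). Trip4, another subunit of the complex, rose by 0.21 (edgeR adjusted p = 0.0197), a call lost without siCtrl 1 (edgeR adjusted p = 0.0616), siCtrl 2 (0.0689) or siRSL24D1 2 (0.0589).

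The Zfp598 to Ascc3 count ratio was 0.346, 0.318 and 0.307 in siCtrl and 0.353, 0.406 and 0.382 in siRSL24D1. All 3 siRSL24D1 ratios were higher, by 0.23 on the log2 scale (exact permutation p = 0.1, 0.175 adjusted over the 7 ratios). The nearest libraries, siCtrl 1 and siRSL24D1 1, were at 0.3458 and 0.3525. The difference was 0.18 without siRSL24D1 2 and 0.29 without siRSL24D1 1. Ratios were not corrected for transcript length or GC content.

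Gigyf2, a large scaffold protein, and Eif4e2, a cap-binding protein that competes with the initiation factor Eif4e, act as a pair on stalled messages. Their genes also lie close together on chromosome 1, Eif4e2 from 87213914 to 87240488 and Gigyf2 from 87326998 to 87450796, with 86509 bases between them. Gigyf2 stood at 122.4, 126.8 and 122.8 CPM in siCtrl and 120.5, 119.4 and 115.2 CPM in siRSL24D1. The groups did not overlap, but the log2 fold change of -0.07 did not pass (95% interval from -0.16 to 0.02, edgeR adjusted p = 0.203). Eif4e2 stood at 106.1, 101.7 and 104.2 CPM in siCtrl and 105.3, 106.8 and 104.6 CPM in siRSL24D1, with overlapping ranges. Its log2 fold change was 0.02 with a 95% interval from -0.06 to 0.11 (edgeR adjusted p = 0.673), and its sign changed under upper-quartile scaling. The Gigyf2 to Eif4e2 count ratio was 1.15, 1.25 and 1.18 in siCtrl and 1.14, 1.12 and 1.102 in siRSL24D1. The mean log2 difference was -0.09, with the lowest siCtrl and highest siRSL24D1 libraries at 1.153 and 1.144 (exact permutation p = 0.1, 0.175 adjusted). Without siCtrl 2 the difference was -0.06. The related scaffold gene Gigyf1 averaged 26.1 ± 4.37 CPM in siCtrl and 25.6 ± 2.91 CPM in siRSL24D1, and its log2 fold change of -0.03 (edgeR adjusted p = 0.874) was 0.10 without siCtrl 3. The potassium channel gene Kcnj13, which lies antisense within Gigyf2 and shares 623 exon bases with it, had 0 to 2 counts in a library.

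Nemf and Ltn1 act on the large subunit after splitting. Nemf, on chromosome 12 from 69310522 to 69357165, stood at 99.1, 99.7 and 96.2 CPM in siCtrl and 98.98, 104.9 and 102.1 CPM in siRSL24D1. The ranges overlapped, and the log2 fold change was 0.05 with a 95% interval from -0.04 to 0.15 (edgeR adjusted p = 0.329). Nemf shares 166 exon bases with Klhdc2 on the other strand. Klhdc2, a substrate receptor of a ubiquitin ligase, averaged 63.3 ± 1.05 CPM in siCtrl and 58.4 ± 2.61 CPM in siRSL24D1 (edgeR adjusted p = 0.0827). The library kit keeps strand, but the strand setting of the counting is not given in the sources used here.

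Ltn1, on chromosome 16 from 87376651 to 87432612, stood at 115.4, 113.0 and 121.4 CPM in siCtrl and 118.6, 115.3 and 121.7 CPM in siRSL24D1. The ranges overlapped, and the log2 fold change was 0.02 with a 95% interval from -0.08 to 0.12 (edgeR adjusted p = 0.694). After the correction for transcript length it was -0.07 (edgeR adjusted p = 0.25). The Nemf to Ltn1 count ratio was 0.859, 0.883 and 0.792 in siCtrl and 0.834, 0.910 and 0.839 in siRSL24D1, again overlapping (exact permutation p = 0.6). Vcp, the ATPase that pulls ubiquitinated chains off the large subunit, and Tcf25, which works with Ltn1, were each at a log2 fold change of 0.02 (edgeR adjusted p = 0.697 and 0.698), and the signs of both changed under upper-quartile scaling.

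For the 9 factors that did not pass, the fitted level in siRSL24D1 ranged from 0.918 (Ascc3) to 1.08 (Zfp598) of siCtrl. Their 95% intervals spanned 0.838 at the lowest (Ascc3) to 1.17 at the highest (Zfp598). These intervals bound the difference between the groups, and they do not show that the levels were equal. Most members were measured with little spread between replicates: the median coefficient of variation over the 10 was 2.23% in siCtrl and 2.56% in siRSL24D1. Over the genes of the members' range of level these medians were 4.30% and 4.37%. Gtpbp2 was above this in siCtrl (7.47%, against 1.64% in siRSL24D1), and Ascc3 in both groups (5.36% and 5.67%). The counts behind the values ran from 480.6 for Pelo to 20839 for Abce1 in a library.

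Levels of different genes can be ordered only per length, here as CPM per kilobase of annotated transcript in siCtrl. The order depended on which transcript was used, because GENCODE lists many short transcripts for some members (23 for Gigyf2, with a median of 995 and a longest of 5724 bases). Abce1 was first and Hbs1l second under both lengths. Per kilobase of the median transcript, Abce1 was at 294.7 ± 6.91, Hbs1l at 137.2 ± 1.51 and Gigyf2 at 124.6 ± 2.46 CPM. Pelo was lowest at 9.60 ± 0.13 CPM per kilobase, with Zfp598 next at 12.2 ± 0.41. Per kilobase of the longest transcript, Abce1 was at 149.3 ± 3.50 and Hbs1l at 46.02 ± 0.51 CPM. They were followed by Eif4e2 at 29.9 ± 0.64, Gigyf2 at 21.7 ± 0.43, Nemf at 20.8 ± 0.40, Ascc3 at 15.9 ± 0.85, Ltn1 at 15.1 ± 0.56 and Zfp598 at 11.9 ± 0.41 CPM per kilobase. Pelo was at 9.60 ± 0.13 and Gtpbp2 at 8.85 ± 0.66. On this scale neighbours overlapped between libraries for Ascc3 with Ltn1 and for Pelo with Gtpbp2. Pelo was below Hbs1l, Abce1, Nemf and Ltn1 under both lengths.

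**Figure D3:**
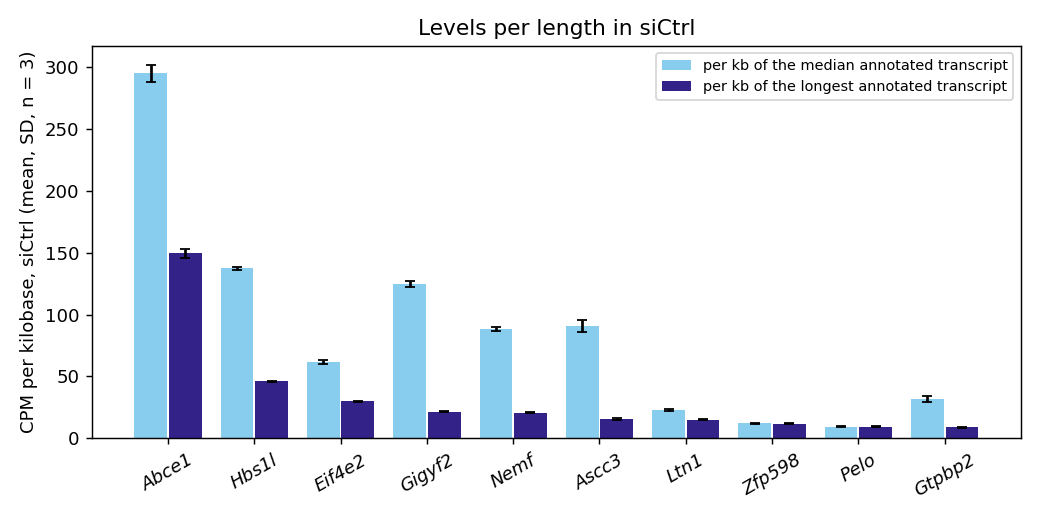
CPM per kilobase in siCtrl (mean and SD, n = 3) for each factor, divided by the median (light) or the longest (dark) annotated transcript, in the order of the dark bars. Abce1 is highest under both, at 294.7 and 149.3, while Gigyf2 moves from 124.6 to 21.7.

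Genes that act around these factors were taken from 9 lists with 103 genes in the table, all tested. Of these, 20 rose and 13 fell (32.0% past the test, against 41.2% of all genes), with a median log2 fold change of 0.03 against 0.02 over all genes tested. The falls numbered 8 without siCtrl 1, without siCtrl 2 and without siRSL24D1 1. The share past the test was 66.7% for collision sensors and for the UFM1 system, 46.2% for chain degradation and 33.3% for dormant ribosomes. It was 23.1% for mRNA decay, 20% for mitochondrial rescue, and 16.7% each for rescue with termination and for nonsense-mediated decay. For the small-subunit ligases it was 0%. The lists too were chosen with earlier results of these data known, and no list was tested as a set.

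Of 12 collision sensors and related genes, 5 rose and 3 fell, at a median of 0.09. The rises numbered 3 without siCtrl 1, 2 without siCtrl 2 and 3 without siRSL24D1 2. Map3k20, the kinase that starts stress signalling from collided ribosomes, rose from 63.4 ± 4.83 to 94.3 ± 4.55 CPM, for a log2 fold change of 0.57 (edgeR adjusted p = 0.000319). Rnf25, a ubiquitin ligase for factors trapped on ribosomes, rose by 0.27 (edgeR adjusted p = 0.0373). That call was lost under upper-quartile scaling (edgeR adjusted p = 0.0634) and without siCtrl 2, siCtrl 3, siRSL24D1 1 or siRSL24D1 2 (edgeR adjusted p = 0.0705 to 0.102), and the log2 fold change was 0.17 without siCtrl 3. Eif2ak4, the kinase GCN2 that phosphorylates initiation factor eIF2, fell from 45.05 ± 0.67 to 36.1 ± 1.01 CPM, for a log2 fold change of -0.32 (edgeR adjusted p = 0.000884). Ascc1, which belongs to the same complex as Ascc3, fell from 31.9 ± 2.34 to 24.4 ± 1.26 CPM (-0.39, edgeR adjusted p = 0.00288).

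In the UFM1 system, which attaches the small protein UFM1 to large subunits at the endoplasmic reticulum, 2 of 9 genes rose and 4 fell, at a median of -0.14. The falls numbered 3 in DESeq2, in limma-voom and with the replicate number as a block. Ufm1 itself rose by 0.35. Ufsp2, the protease that removes UFM1, fell from 42.4 ± 1.20 to 30.9 ± 0.14 CPM (-0.46, edgeR adjusted p = 0.000183). Cdk5rap3, an adaptor of the UFM1 ligase, was at -0.40 (edgeR adjusted p = 0.00116). Both directions were also common among all genes tested, at 21.2% higher and 20.0% lower in siRSL24D1.

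For degradation of the unfinished chain, 3 of 13 genes rose and 3 fell, at a median of 0.02. Rchy1, a ubiquitin ligase that recognises alanine-tailed chains, rose by 0.39 (edgeR adjusted p = 0.00114), and Ufd1, a cofactor of Vcp, by 0.25 (edgeR adjusted p = 0.00398). Elac1, which repairs tRNAs cut during rescue, fell from 9.79 ± 0.39 to 6.86 ± 0.32 CPM (-0.51, edgeR adjusted p = 0.00136). Ankzf1, which frees the chain from its tRNA, fell from 29.2 ± 0.86 to 22.9 ± 1.92 CPM (-0.35, edgeR adjusted p = 0.00468).

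Of 12 rescue, recycling and termination genes, 2 rose, Etf1 and Eif3j2, and 0 fell, at a median of 0.07. At an unadjusted p under 0.05 in edgeR 1 was lower, DESeq2 called 0, and 1 fell without siCtrl 3 and without siRSL24D1 2. With library totals 4 rose. Eif3j2, a subunit of initiation factor eIF3 with a near-identical copy in Eif3j1, rose by 0.25 (edgeR adjusted p = 0.00145), and reads of the copies may be shared. Of 8 ubiquitin ligases, deubiquitinases and related genes of the small subunit, 0 rose and 0 fell at a median of 0.01. At an unadjusted p under 0.05 in edgeR 1 was higher, and DESeq2 called 0. With library totals as scaling 1 rose.

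Of 26 genes of cytoplasmic mRNA decay, 5 rose and 1 fell, at a median of 0.05. Edc4, a scaffold of decapping, rose from 109.6 ± 3.48 to 143.6 ± 1.73 CPM (0.39, edgeR adjusted p = 0.000222), and Dis3, a nuclease of the exosome, by 0.25 (edgeR adjusted p = 0.00431). Exosc8, an exosome subunit, was at -0.20 (edgeR adjusted p = 0.0436). That call was lost with library totals (edgeR adjusted p = 0.0538) and without siCtrl 1, siCtrl 2, siRSL24D1 1 or siRSL24D1 3 (edgeR adjusted p = 0.0729 to 0.149). The number that fell was 4 under upper-quartile scaling and 0 with library totals, and 4 with the replicate number as a block. Without siCtrl 2 the rises numbered 3.

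Of 12 genes of nonsense-mediated decay, 2 rose and 0 fell, at a median of 0.07. At an unadjusted p under 0.05 in edgeR 1 was lower, DESeq2 called 0, and the fit with the replicate number as a block called 1. Without siCtrl 3, 4 rose and 1 fell, and without siRSL24D1 2, 1 fell. Smg5, which recruits decay enzymes, rose from 103.1 ± 5.38 to 143.4 ± 3.74 CPM (0.48, edgeR adjusted p = 0.000218). Smg8, a regulator of the kinase Smg1, was at 0.17 (edgeR adjusted p = 0.0435). It was over the threshold in 8 of the other fits on all 6 libraries, DESeq2 among them (adjusted p = 0.094), and without any 1 library other than siRSL24D1 1 (edgeR adjusted p = 0.0878 to 0.1397).

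Of 6 factors of dormant ribosomes, 1 rose and 1 fell, at a median of -0.04. Ifrd1 rose from 53.6 ± 1.16 to 76.4 ± 4.98 CPM (0.51, edgeR adjusted p = 0.000279). Eef2, the elongation factor that moves the ribosome along, was at -0.20 (edgeR adjusted p = 0.0167), a call lost without siCtrl 1, siCtrl 2, siRSL24D1 1 or siRSL24D1 3 (edgeR adjusted p = 0.0612 to 0.0825). Without siCtrl 3, 2 of these factors fell. Of 5 mitochondrial rescue genes, 0 rose and 1 fell, at a median of -0.01, with 0 higher at an unadjusted p under 0.05 in edgeR and 0 in DESeq2. Mrrf, the mitochondrial recycling factor, was at -0.20 (edgeR adjusted p = 0.026), a call lost without siCtrl 1, siCtrl 2, siRSL24D1 1 or siRSL24D1 2 (edgeR adjusted p = 0.0628 to 0.1).

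**Figure D4:**
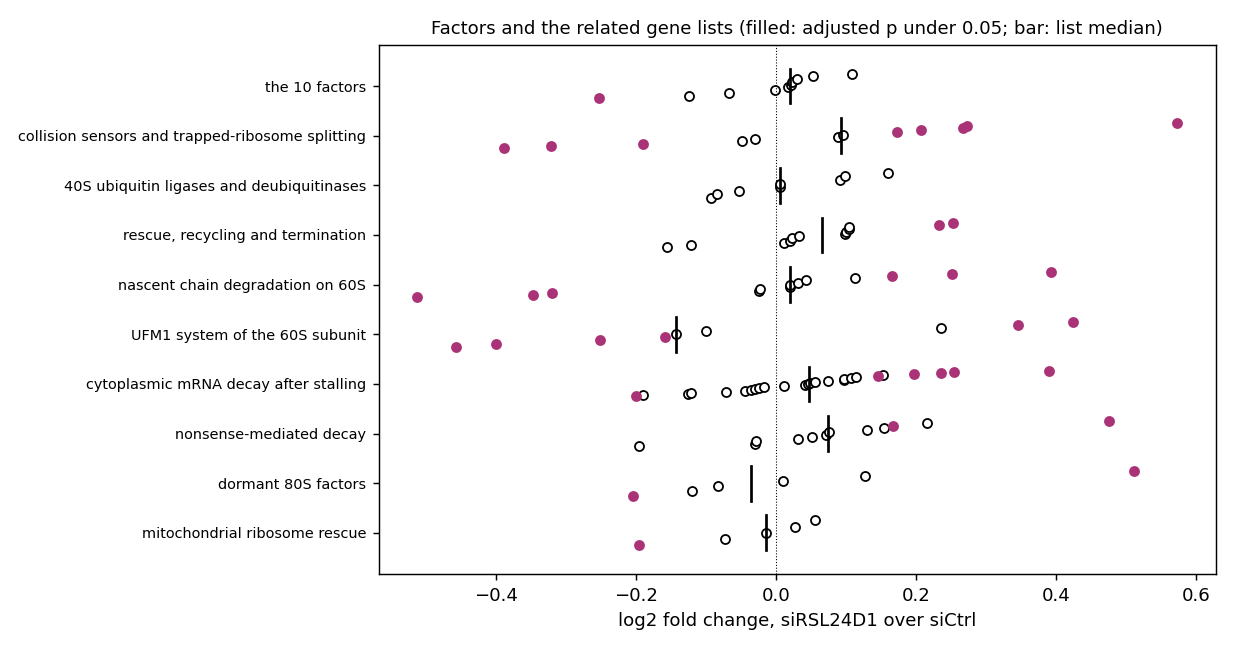
Log2 fold change (siRSL24D1 over siCtrl) of each of the 10 factors and of each gene of the 9 related lists, filled where the adjusted p was under 0.05, with the list's median as a bar. The 10 factors lie between -0.25 and 0.11, while related genes reach from -0.51 (Elac1) to 0.57 (Map3k20).

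Gtpbp2 kept its direction in all 20 alternatives, at -0.31 to -0.20, and passed in 19, the exception being the threshold of 0.01 itself. Zfp598, Gigyf2, Ascc3 and Nemf also kept their direction in all 20. Of these, Ascc3 passed in 2, both with a correction for GC content. After the length correction Zfp598 went from 0.11 to 0.06 and Ltn1 from 0.02 to -0.07 on the log2 scale. After the GC correction Nemf went from 0.05 to 0.02 and Abce1 from 0.03 to 0.0004.

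**Figure D5:**
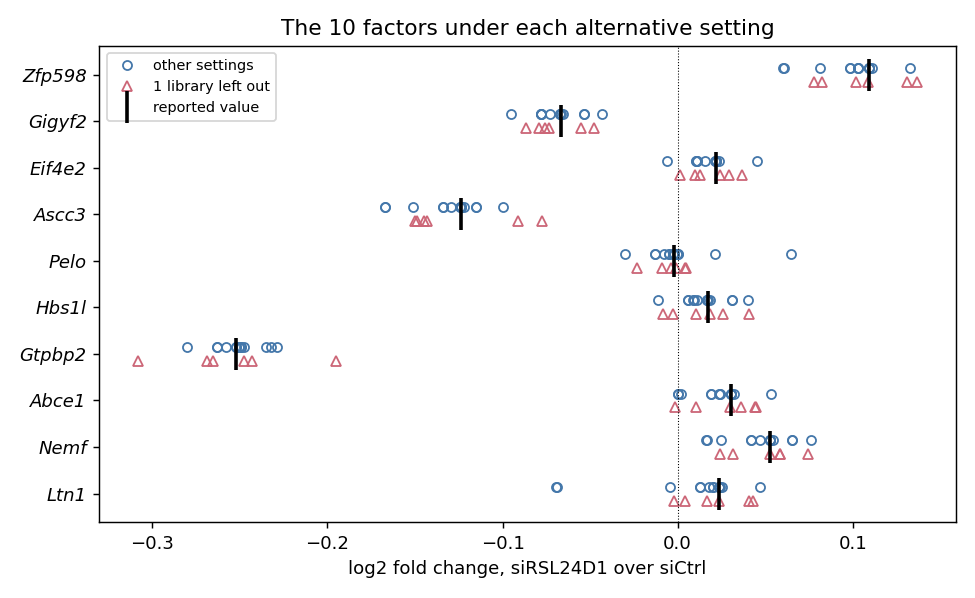
Log2 fold change (siRSL24D1 over siCtrl) of each factor as reported (black bar), under other settings on all 6 libraries (circles) and with 1 library left out (triangles). Gtpbp2 stays between -0.31 and -0.20, while the values of Pelo, Hbs1l, Eif4e2, Abce1 and Ltn1 lie on both sides of 0.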

How the data were processed

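The authors deposited 1 table of unscaled estimated counts, with a row for each gene symbol. STAR 2.7.0f, Salmon 0.14.1 and GRCm38 are named, per the submitters' processing notes. Not given in the sources used here are their roles, the annotation, the strand setting and any filter. Between 21.6% and 22.7% of values were not whole, so counts were rounded. All columns were used.

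Low counts were removed by filterByExpr (minimum count 10 and total 15), and libraries were scaled by TMM and tested, siRSL24D1 against siCtrl, with glmQLFit and glmQLFTest of edgeR 4.0.16 in R 4.3.3 (two-sided, no other term, tested on simulated data). Intervals at 95% use the standard error and degrees of freedom of that fit. Lengths and coordinates come from GENCODE M21 (GRCm38), which held 22304 of the symbols. Ratios used exact permutation tests in scipy 1.17.1.

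The members and lists were chosen with earlier results of these data known. Named are the members, Rsl24d1, partner and overlapping genes, the 3 nearest patterns, and in each list the 2 largest rises and falls past the test. Ascc2, Trip4, Tcf25, Vcp and Gigyf1 were named after their values were seen. The series' design text calls the libraries independent triplicates. Replicates of a group differed by more than counting noise (chi-square per gene 2.66 to 18.5).

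Alternatives were other scalings and filters, DESeq2 1.42.0, voom of limma 3.58.1, unrounded counts, the replicate number as a block, lowess corrections for transcript length and GC content, a threshold of 0.01, and leaving out each library. The values of 1 related gene that the naming rule chose are not reported here.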

Additional observations from a re-analysis of the deposited data

How the results depend on the processing

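The number of factors that fell was 1 in edgeR, 2 with the GC correction and 2 with the GC correction and the replicate block, and 0 at an adjusted p under 0.01; 0 rose in any alternative. The lists' 20 rises and 13 falls were 13 and 8 at an adjusted p under 0.01. Leaving out 1 library gave 8 to 16 list falls. Over all alternatives the lists ran as follows: collision sensors 2 to 6 risen against 5, termination and recycling 2 to 4 against 2, mRNA decay 3 to 6 against 5 risen and 0 to 4 against 1 fallen, nonsense-mediated decay 1 to 4 against 2 risen, dormant ribosomes 0 to 2 against 1 fallen and mitochondrial rescue 0 to 1 against 1 fallen. In the UFM1 system 3 to 4 fell against 4, and in chain degradation 2 to 4 rose against 3. Log2 fold changes near 0 changed sign. Under upper-quartile scaling Eif4e2 was at -0.0062, Hbs1l at -0.0111, Ltn1 at -0.0042, Tcf25 at -0.0072 and Vcp at -0.0079. Pelo was at 0.0214 with library totals, 0.0002 after the length correction with or without the block, and 0.0649 with the counts of Gm49395 added. Ltn1 was at -0.0692 after the length correction and -0.0688 with the block as well. Without 1 library, log2 fold changes ran from -0.023 to 0.0046 for Pelo, -0.0082 to 0.0406 for Hbs1l, -0.0012 to 0.0449 for Abce1, -0.0023 to 0.0432 for Ltn1, -0.0067 to 0.0367 for Tcf25 and -0.1101 to 0.1043 for Gigyf1, and log2 ratio differences from -0.0414 to 0.0129 for Pelo to Hbs1l and -0.0167 to 0.0611 for Nemf to Ltn1. The highest over the lowest level per length was 30.7 with median and 16.9 with longest transcripts. Same-numbered libraries of the 2 groups deviated with correlations of -0.218, 0.144 and 0.168 across genes, so the numbers were not taken to pair the libraries. With the replicate number as a block, 1 factor fell and 0 rose, 21 and 16 list genes rose and fell, and 6431 genes were past the threshold, against 6212. At an adjusted p under 0.01 that number was 3753. The lowest estimated count of a factor in a library was 480.6, for Pelo.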
